A study of Mus musculus with 16 samples.

Results

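The TNF superfamily ligands and receptors were followed in naive T cells that had or lacked GABPα, the DNA-binding subunit of an Ets family transcription factor. The members were the genes whose symbol on the array starts with Tnfsf or Tnfrsf and a digit, together with Tnf, Lta, Ltb, Ltbr, Fas, Cd40, Cd40lg, Cd27 and Cd70; Fasl was left out. They numbered 35 of the 12394 genes measured, and each was read from 1 probe set, the one with the highest mean over the 16 arrays. Of the members, 12 were ligands and the others receptors, 9 of them grouped here as costimulatory (among these Tnfrsf25, which also has a death domain), 4 other receptors with a death domain, 8 known mainly from lymphoid organ, B cell and bone biology, and 2 mouse decoy receptors.

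All mice were C57BL/6 and carried floxed Gabpa alleles on both chromosomes. WT mice were Gabpa f/f, littermates where possible, and KO mice were CD4Cre Gabpa f/f, in which Cre is switched on in CD4+ CD8+ thymocytes, so that the gene is lost before T cells leave the thymus. Naive CD4+ or CD8+ T cells (CD25-, CD62L high, CD44 low) were sorted from spleen and lymph nodes, and RNA was taken from part of each sort directly (0 h) and from the rest after 18 h of culture with IL-2 and antibodies to CD3 and CD28. Each of the 8 groups of lineage, genotype and time held 2 arrays of biological replicates, from mice whose age and sex were not given for the arrays. Which samples share a mouse is not stated in the labels, so p-values measure the spread between these samples alone.

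TNF superfamily ligands are mostly membrane proteins that assemble as trimers and gather their receptors into clusters. Receptors that recruit TRAF adaptors pass the signal to NF-κB and to survival and growth pathways, and those with a death domain can also start caspase-driven death. On T cells, CD27 is present before activation and OX40, 4-1BB and GITR are best known as costimulatory receptors that activation brings up, while CD40 ligand, OX40 ligand, CD70 and RANKL let T cells talk to dendritic cells, B cells and other T cells.

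Promoter sequence was at hand for 27 of the 35 members, in the RefSeq windows of assembly GRCm38.p6 that run from 250 bases before to 50 bases after a start site. Members also lie side by side in the genome. In the order of protein-coding genes, 12 of them fell into 5 runs of direct neighbours, namely Ltb, Tnf and Lta on chromosome 17, Tnfsf9, Cd70 and Tnfsf14 on the same chromosome, Tnfrsf1b with Tnfrsf8 and Tnfrsf4 with Tnfrsf18 on chromosome 4, and Tnfrsf22 with Tnfrsf23 on chromosome 7. The windows shown are those of the members that the KO comparisons turn on and that had one (Tnfsf11 at chr14:78307994-78308293 and Lta at chr17:35205302-35205601 on the reverse strand, Tnfrsf9 at chr4:150927749-150928048, Fas at chr19:34290409-34290708 and Tnfrsf13b at chr11:61126505-61126804 on the forward strand), of Tnfrsf25 (chr4:152115684-152115983, forward), which differed most between resting KO cells of the lineages, and of the neighbours of Lta, Tnf (chr17:35201958-35202257, reverse) and Ltb (chr17:35194257-35194556, forward). Tnfrsf9 and Tnfrsf25 each had 2 windows, and the one with more matches is given. Capitals mark matches on either strand to GGNNTTTCC (an NF-κB type site), to CGGAAG (an Ets type site, the family of GABP) or to TGANTCA (an AP-1 site).
Tnfsf11: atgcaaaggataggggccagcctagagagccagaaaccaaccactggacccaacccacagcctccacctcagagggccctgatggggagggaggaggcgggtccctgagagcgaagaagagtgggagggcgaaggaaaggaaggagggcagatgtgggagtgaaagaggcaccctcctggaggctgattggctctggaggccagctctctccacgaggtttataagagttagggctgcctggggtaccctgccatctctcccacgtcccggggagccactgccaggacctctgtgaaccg
Lta: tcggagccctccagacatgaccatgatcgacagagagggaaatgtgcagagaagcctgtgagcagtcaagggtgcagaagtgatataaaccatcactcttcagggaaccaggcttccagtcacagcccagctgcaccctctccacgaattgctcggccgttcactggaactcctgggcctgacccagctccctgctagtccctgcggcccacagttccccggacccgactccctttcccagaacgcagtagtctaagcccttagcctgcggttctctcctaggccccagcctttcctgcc
Tnfrsf9: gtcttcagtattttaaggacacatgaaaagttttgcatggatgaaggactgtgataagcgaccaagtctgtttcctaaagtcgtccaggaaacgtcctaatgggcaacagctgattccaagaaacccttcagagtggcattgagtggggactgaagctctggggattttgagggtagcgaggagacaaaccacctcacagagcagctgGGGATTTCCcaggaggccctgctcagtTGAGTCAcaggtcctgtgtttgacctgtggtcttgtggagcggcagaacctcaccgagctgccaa
Fas: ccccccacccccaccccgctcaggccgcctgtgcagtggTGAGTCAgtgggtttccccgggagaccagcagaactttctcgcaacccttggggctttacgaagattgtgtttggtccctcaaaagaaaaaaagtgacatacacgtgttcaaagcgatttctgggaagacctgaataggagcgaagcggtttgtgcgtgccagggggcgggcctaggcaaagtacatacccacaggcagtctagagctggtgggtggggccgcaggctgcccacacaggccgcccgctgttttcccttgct
Tnfrsf13b: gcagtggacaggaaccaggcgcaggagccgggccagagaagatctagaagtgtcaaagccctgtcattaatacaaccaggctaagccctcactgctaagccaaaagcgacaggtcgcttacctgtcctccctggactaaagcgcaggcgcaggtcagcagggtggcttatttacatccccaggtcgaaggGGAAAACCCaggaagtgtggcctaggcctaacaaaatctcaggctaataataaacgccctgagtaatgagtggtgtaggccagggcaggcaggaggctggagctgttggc
Tnfrsf25: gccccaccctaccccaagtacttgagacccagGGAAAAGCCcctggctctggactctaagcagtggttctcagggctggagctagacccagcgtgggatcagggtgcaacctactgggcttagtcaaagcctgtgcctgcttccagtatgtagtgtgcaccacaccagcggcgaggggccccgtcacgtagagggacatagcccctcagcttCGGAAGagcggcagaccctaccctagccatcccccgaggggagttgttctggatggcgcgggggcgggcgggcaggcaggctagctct
Tnf: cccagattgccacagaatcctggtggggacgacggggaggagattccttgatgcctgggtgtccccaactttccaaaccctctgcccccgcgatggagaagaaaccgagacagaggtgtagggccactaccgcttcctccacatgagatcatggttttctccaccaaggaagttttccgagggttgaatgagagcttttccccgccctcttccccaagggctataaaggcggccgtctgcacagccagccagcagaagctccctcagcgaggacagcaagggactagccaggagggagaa
Ltb: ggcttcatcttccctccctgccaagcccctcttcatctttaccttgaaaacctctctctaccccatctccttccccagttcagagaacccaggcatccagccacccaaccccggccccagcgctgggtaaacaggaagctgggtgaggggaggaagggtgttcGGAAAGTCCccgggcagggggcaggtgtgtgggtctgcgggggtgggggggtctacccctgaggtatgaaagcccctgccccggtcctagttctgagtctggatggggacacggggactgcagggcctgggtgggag
No capitals stand in the windows of Tnfsf11, Lta and Tnf, and none of these 5 windows of members called in a KO comparison held the Ets type letters. Cd70 and Tnfsf4, also called there, are named only. The Ets type letters did occur in Tnfrsf12a, which was called higher in CD4 KO cells at 18 h with the replicate block. They also occurred in Tnfrsf25, which was called lower in CD8 KO cells at 0 h in a fit with array weights. Among the 27 members with a window, 4 held the NF-κB type letters (Ltb, Tnfrsf13b, Tnfrsf25 and Tnfrsf9), or 14.8%, beside 6.62% of all 27025 genes with windows of this length. The Ets type letters were found in 6 (Ltbr, Tnfrsf12a, Tnfrsf1a, Tnfrsf1b, Tnfrsf25 and Tnfsf13b), or 22.2%, beside 18.8% of all genes, and the AP-1 letters in 5 (Fas, Tnfrsf8, Tnfrsf9, Tnfsf13b and Tnfsf14), or 18.5%, beside 8.97%. A match is a description of the letters and no evidence that a factor binds there.

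The arrays gave values on a log2 scale from 1.62 to 14.45, with array medians between 5.24 and 5.43. Gabpa itself was read by a probe set whose place relative to the deleted part is not given in the sources used here. Its range was 8.74 to 9.34 in WT (8 arrays) and 9.09 to 9.79 in KO (8 arrays), which checks nothing about the deletion. By the paper's immunoblots, GABPα protein was hardly detected in either T cell lineage from spleen and lymph nodes of KO mice. Cd8a, which encodes a chain of the CD8 coreceptor, ranged from 10.89 to 12.01 in CD8 and from 4.42 to 7.56 in CD4 samples, where the highest were replicate 1 of CD4 WT at 0 h (7.56) and at 18 h (6.85). Controls that compare the 3′ and 5′ ends of actin and Gapdh transcripts, a sign of RNA quality, differed by 3.76 in CD8 KO 18 h replicate 2, by 1.58 in CD4 WT 0 h replicate 1 and by 1.11 in CD8 KO 0 h replicate 2, and by 0.46 to 0.85 in the other 13 arrays. Results were also computed without these sets of 2 and 3 arrays, and values are given below for calls that changed. In sorted populations, fewer cells that express a gene and less RNA per cell cannot be told apart.

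Values of a probe set are given as replicate 1 and then replicate 2 of a group, and differences are log2 differences of group means with their standard error (SE) from limma (n = 2 arrays per group). To be called, a gene needed a Benjamini-Hochberg adjusted p under 0.05 over all genes and a fold above 1.5. Within a lineage, same-numbered samples deviated together, so a fit with the replicate number as a block was also run, and its values are given beside the calls that it added. The main fit treated samples of 0 h and 18 h as independent, although the cells of each sort were divided between these times.

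At rest, none of the members was called different between KO and WT. In CD4 cells at 0 h the members' median difference was -0.03 (-0.06 over all genes), and 0 of 35 were called against 1.27% of all genes. An unadjusted p under 0.05 was found for 2 of 35, beside 10.5% of all genes. In CD8 cells at 0 h the median was 0.01 (0.02 over all genes), and 0 were called against 1.63% of all genes. Here 6 had an unadjusted p under 0.05, beside 10.8% of all genes. The largest of these were Tnfrsf25, which encodes the death receptor DR3 (-1.15 ± 0.31, adjusted p = 0.110), and Tnfsf10, which encodes TRAIL, a ligand of death receptors (0.996 ± 0.24, adjusted p = 0.0621). With the replicate block, Tnfsf10 (adjusted p = 0.0151) and Tnfrsf9 (0.74 ± 0.15, adjusted p = 0.0234) were called higher in CD8 KO cells at 0 h. With array weights, Tnfsf10 was called higher (adjusted p = 0.0079) and Tnfrsf25 lower (adjusted p = 0.0425) in these cells.

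After 18 h of stimulation, members were called different between KO and WT cells of both lineages. In CD4 cells, 5 members were higher in KO cells (Cd70, Tnfsf4, Tnfsf11, Tnfrsf9 and Fas), against 2.72% of all genes, and 1 was lower (Tnfrsf13b), against 4.14%. The members' median difference was 0.27, compared with 0.02 over all genes, and 29 of 35 differences lay above 0. Markers of memory and effector T cells moved as well, 2 of 12 being higher in KO cells in CD4 (Bhlhe40 by 1.80 and Fasl by 1.40) and 3 of 12 in CD8 cells at 18 h (Bhlhe40 by 2.02, Fasl by 1.53 and Ahnak by 0.96). The mean of these 12 per array lay between 5.74 and 5.75 in CD4 WT and between 5.85 and 6.17 in CD4 KO cells. The range in CD8 cells was 5.73 to 5.83 (WT) and 6.12 to 6.40 (KO). No gene of this list was called lower in KO cells of either lineage after stimulation. Its gene Cd44 nevertheless read 8.56 and 8.61 in stimulated CD4 KO against 8.93 and 9.36 in stimulated CD4 WT arrays. Before stimulation, 2 of the 12 were called lower and 0 higher in CD4 KO cells, with a median difference of -0.35. Resting CD8 KO cells had 0 called either way (median -0.03). The part of memory and effector T cells in the members' values was not tested. By role, the ligands had a median of 0.62 and 3 of 12 called higher in stimulated CD4 KO cells. There, 1 of 9 costimulatory and 1 of the 4 other death domain receptors rose, and 1 of 8 receptors of the lymphoid and B cell group fell.

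Cd70, the ligand of CD27, showed the largest difference of all members. It read 5.87 and 5.76 in CD4 KO cells at 18 h and 3.38 and 3.38 in WT cells. At 0 h its values were 2.84 and 2.71 in CD4 WT and 2.66 and 2.90 in CD4 KO cells. Both stimulated KO arrays thus stood above every other array of the series. Even these lay below the median gene mean of 5.88, so the Cd70 probe set was dim in every array. The difference at 18 h was 2.44 ± 0.24, a 5.42-fold higher value (adjusted p = 6.61e-05), and it was the only KO call among members that held in all 16 fits with 1 array left out and in a test of differences over 1.5-fold (limma's treat). In CD8 cells Cd70 read 2.99 and 3.03 in WT and 3.12 and 2.81 in KO cells at 0 h, then 2.85 and 3.18 in WT and 3.47 and 4.36 in KO cells at 18 h. The stimulated CD8 KO arrays were the highest in that lineage without overlap, and the difference of 0.90 ± 0.24 was not called (adjusted p = 0.0697) except with the replicate block (adjusted p = 0.0401). The higher of these values, 4.36, comes from the array with the largest 3′ to 5′ difference.

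Tnfsf4, which encodes OX40 ligand, read 8.87 and 8.09 in CD4 KO cells at 18 h against 7.26 and 5.71 in WT cells. Before stimulation it lay at 4.49 and 5.28 in CD4 WT and at 5.51 and 5.37 in CD4 KO cells. Its KO difference at 18 h was 1.997 ± 0.50 (adjusted p = 0.0296), with no overlap although the WT replicates lay far apart. In CD8 cells it read 4.99 and 4.37 in WT and 4.53 and 5.35 in KO cells at 0 h, and 4.83 and 5.86 in WT and 7.18 and 7.22 in KO cells at 18 h. The CD8 difference at 18 h was of like size, 1.85 ± 0.50, and passed with the replicate block (adjusted p = 0.0409) but not without it (adjusted p = 0.0716).

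Tnfsf11, which encodes RANKL, a ligand best known for driving osteoclasts, behaved likewise. CD4 KO cells at 18 h read 11.68 and 11.64, and CD4 WT cells 9.87 and 9.63. At 0 h the values were 6.65 and 6.04 in CD4 WT and 7.26 and 6.05 in CD4 KO cells, which overlapped. The 18 h difference was 1.91 ± 0.41, or 3.75-fold (adjusted p = 0.0144). CD8 cells read 4.26 and 4.10 in WT and 4.15 and 5.23 in KO cells at 0 h, and 6.66 and 7.53 in WT and 8.35 and 8.52 in KO cells at 18 h. Again the stimulated KO arrays lay above both WT arrays, with a difference of 1.34 ± 0.41 (adjusted p = 0.111, and 0.0276 with the replicate block). A second, dimmer Tnfsf11 probe set moved by 2.13 ± 0.58 in CD4 cells at 18 h and was not called (adjusted p over all probe sets = 0.0624). In CD8 cells at 18 h that probe set went the other way, by -0.52 ± 0.58 (adjusted p over all probe sets = 0.756).

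Tnfrsf9 encodes 4-1BB, a costimulatory receptor of activated T cells, and Fas encodes the death receptor CD95. The windows of both hold AP-1 letters, and that of Tnfrsf9 the NF-κB type letters as well. Tnfrsf9 read 9.09 and 9.35 in CD4 KO cells at 18 h against 7.73 and 8.14 in WT cells, after 6.09 and 6.26 in KO and 5.86 and 5.92 in WT cells at 0 h. The KO difference at 18 h was 1.28 ± 0.22 (adjusted p = 0.00352), and a second probe set gave 1.36 ± 0.30 (adjusted p over all probe sets = 0.0259). CD8 cells read 8.27 and 7.90 in WT and 8.65 and 8.27 in KO cells at 18 h, which meet, and 5.58 and 5.05 in WT and 6.06 and 6.05 in KO cells at 0 h, which do not.

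Fas read 8.84 and 8.51 in CD4 KO cells at 18 h and 7.54 and 7.55 in CD4 WT cells. At 0 h it read 8.33 and 7.86 in WT and 8.31 and 7.76 in KO cells of this lineage, with no separation. The difference at 18 h was 1.13 ± 0.27, or 2.19-fold (adjusted p = 0.0228). CD8 KO cells at 18 h read 8.50 and 8.83 and CD8 WT cells 7.92 and 7.62, following 7.37 and 8.12 in KO and 7.67 and 7.81 in WT cells at 0 h. The CD8 difference of 0.89 ± 0.27 had an adjusted p of 0.104, or 0.0354 with the replicate block.

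Tnfrsf13b, which encodes TACI, a receptor for BAFF and APRIL best known on B cells, was the member that was lower in both lineages. In CD4 cells at 18 h it read 6.58 and 5.95 in KO and 7.38 and 7.17 in WT arrays, and at 0 h 7.77 and 7.52 in KO and 8.02 and 7.99 in WT arrays. In CD8 cells it read 6.61 and 6.63 in KO and 7.25 and 7.97 in WT arrays at 18 h, and 6.96 and 7.13 in KO and 7.68 and 7.65 in WT arrays at 0 h. KO values lay below WT values without overlap in all 4 of these comparisons. At 18 h it fell by 1.01 ± 0.24 in CD4 cells (adjusted p = 0.0219) and by 0.99 ± 0.24 in CD8 cells (adjusted p = 0.0471). Of 11 measured B cell markers, 1 (Ighm, lower by 1.46) was called in CD4 cells and 0 in CD8 cells at 18 h. Their mean per array lay between 4.35 and 4.40 in CD4 WT and between 4.11 and 4.32 in CD4 KO cells at 18 h, and between 4.42 and 4.54 in CD8 WT and 4.26 and 4.73 in CD8 KO cells. The defining B cell genes Cd79a and Pax5 lay between 3.54 and 4.26 and between 2.98 and 3.49 over all arrays, but Ms4a1 ranged from 3.48 to 6.38 and Cd79b from 3.45 to 7.57. Cd79b was also lower in KO cells in each of the 4 comparisons, by 0.54 and 0.38 in CD4 cells at 0 h and 18 h and by 0.71 and 0.60 in CD8 cells, none of them called. The part of B cells in the Tnfrsf13b values was not tested.

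In CD8 cells at 18 h, 0 members were called higher in KO cells (1.59% of all genes were) and 2 were called lower (1.16% of all genes were), Tnfrsf13b and Lta. Lta encodes lymphotoxin α, a secreted relative of TNF, and its window holds none of the 3 motifs. It read 8.22 and 8.41 in CD8 KO and 9.20 and 9.17 in CD8 WT cells at 18 h, and 6.87 and 6.80 in KO and 6.68 and 6.50 in WT cells at 0 h. In CD4 cells its values were 9.44 and 10.04 in KO and 9.43 and 9.47 in WT cells at 18 h, and 7.31 and 7.43 in KO and 7.46 and 7.09 in WT cells at 0 h. Lta fell by 0.87 ± 0.19 in stimulated CD8 KO cells (adjusted p = 0.0344), while the CD4 groups overlapped. Both CD8 calls were lost without the 3 arrays of largest 3′ to 5′ difference, with changes of -0.96 for Lta (adjusted p = 0.0749) and -0.997 for Tnfrsf13b (adjusted p = 0.177). Leaving out 1 array at a time, Lta was called in 5 of 16 fits and Tnfrsf13b in 4. Between 0 and 10 members were called in all, the 10 without CD8 KO 18 h replicate 1, which leaves the array of largest 3′ to 5′ difference as the only one of its group. Without replicate 1 of CD4 WT at both times, Tnfsf4 was called instead (adjusted p = 0.0444), with adjusted p of 0.0546 for Lta and 0.0875 for Tnfrsf13b. With the replicate block, 6 members were called in CD8 cells at 18 h, Cd70, Fas, Tnfsf11 and Tnfsf4 higher and Lta and Tnfrsf13b lower.

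**Figure D1:**
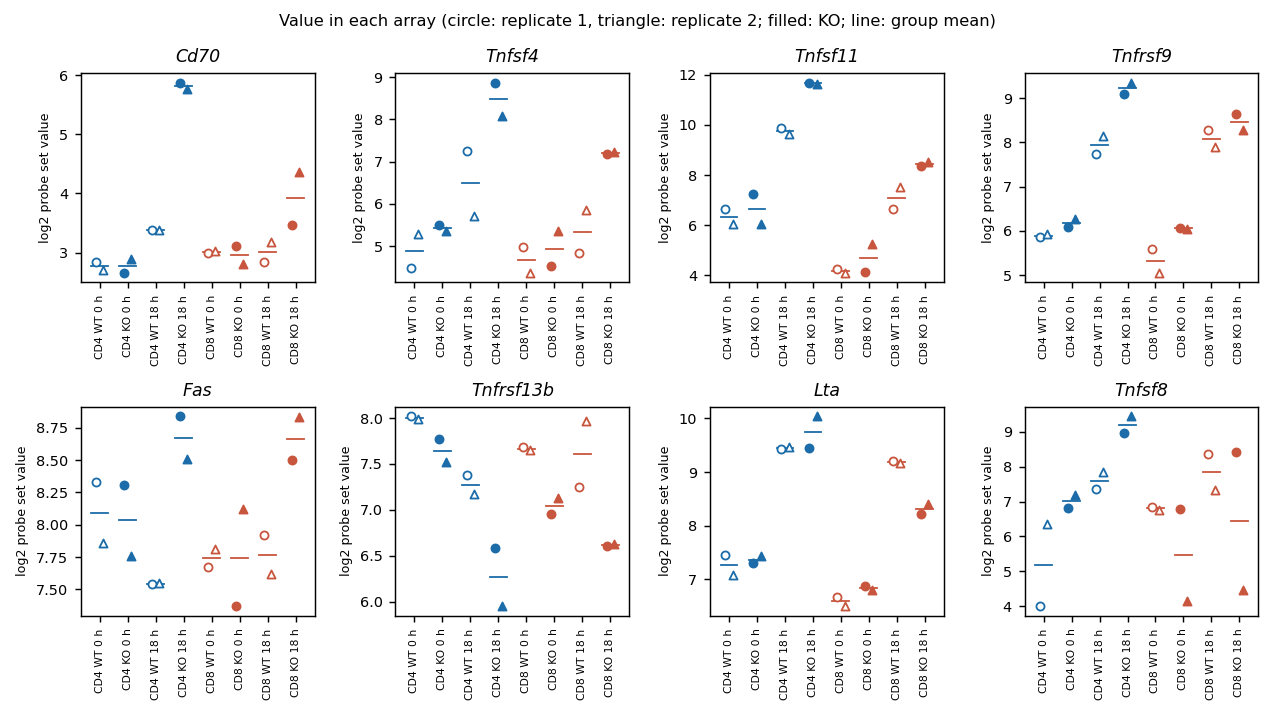
Log2 probe set value (vertical axis) of 8 members in each of the 16 arrays, by group (horizontal axis); blue is CD4, red CD8, filled symbols KO, circles replicate 1, triangles replicate 2, and lines the group means. Cd70 stands at 5.87 and 5.76 in CD4 KO cells at 18 h and at 4.36 or below elsewhere, and Tnfsf8 shows the 3 low arrays at 4.0, 4.14 and 4.48.

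The CD4 calls depended in part on single arrays. Leaving out 1 array at a time gave between 1 and 8 called members, and the 1 came without CD4 KO 18 h replicate 2, when Cd70 alone was called. Calls were lost only by leaving out 1 of the 4 CD4 arrays of 18 h. Tnfsf11 (1.79 to 2.02, adjusted p = 0.0674 to 0.0993) and Fas (0.96 to 1.29, 0.0730 to 0.176) lost theirs without any of these. Tnfsf4 (1.22 to 2.38, 0.0699 to 0.272) lost its call without WT replicate 2 or either KO replicate. So did Tnfrsf13b (-1.11 to -0.70, 0.0711 to 0.252) without either WT replicate or KO replicate 2, and Tnfrsf9 (1.15, 0.0526) without KO replicate 2. Without replicate 1 of CD4 WT at both times, the arrays of highest Cd8a, 2 members were called in CD4 cells at 18 h, Cd70 and Tnfsf4, and the other differences were 2.02 for Tnfsf11 (adjusted p = 0.0784), 1.08 for Tnfrsf9 (adjusted p = 0.0679), 1.13 for Fas (adjusted p = 0.120) and -0.91 for Tnfrsf13b (adjusted p = 0.188). Without the 3 arrays of largest 3′ to 5′ difference, the 6 calls remained and Cd27 (0.59 ± 0.15, adjusted p = 0.0372) and Tnfsf8 (1.61 ± 0.32, adjusted p = 0.0100) were added. The replicate block also kept the 6 calls and added Cd27 (adjusted p = 0.0445) and Tnfrsf12a, which encodes the TWEAK receptor Fn14 (0.76 ± 0.20, adjusted p = 0.0295).

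Across the family, 23 of 35 members lay above 0 in both lineages at 18 h, 3 lay below 0 in both and 9 had opposite signs. The CD4 and CD8 differences rest on separate arrays, and whether these share mice is not stated. At 18 h the differences correlated at r = 0.44 across the 35 members and at 0.55 across all genes. At 0 h the members' differences had r = -0.24, against 0.46 over all genes. Genes are not independent replicates, and these values describe the profiles only. The difference of the KO effect between lineages was not called for any member. This was so at 0 h (0% of all genes called) and at 18 h (0.0403% of all genes called). An unadjusted p under 0.05 was found for 3 members at 0 h (3.86% of all genes) and 5 at 18 h (6.83% of all genes). For Cd70 the CD8 effect was lower than the CD4 effect by 1.54 ± 0.34 (adjusted p = 0.222), and for Lta by 1.16 ± 0.27 (adjusted p = 0.251). Without the 3 arrays of largest 3′ to 5′ difference the Cd70 value was -1.98 ± 0.24 and was called (adjusted p = 0.0235).

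**Figure D2:**
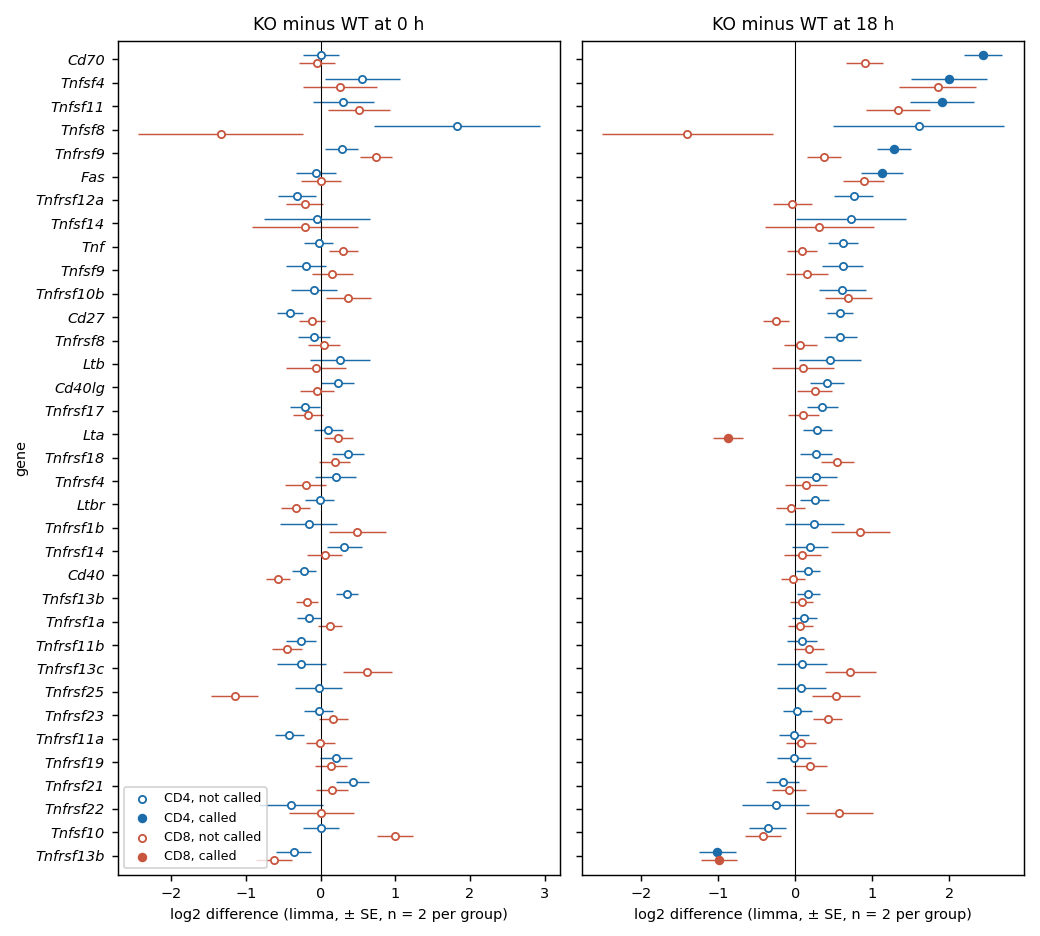
Log2 difference of KO and WT (horizontal axis, ± SE, n = 2 arrays per group) for the 35 members (vertical axis) at 0 h and at 18 h, with CD4 in blue and CD8 in red and called genes filled. No symbol is filled at 0 h; at 18 h 5 members are filled to the right of 0 and Tnfrsf13b to the left in CD4 cells, and Lta and Tnfrsf13b to the left in CD8 cells.

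Stimulation raised more members than it lowered. Called higher were 28.6% of members in CD4 WT, 17.1% in CD8 WT, 37.1% in CD4 KO and 25.7% in CD8 KO cells. Called lower were 14.3%, 2.86%, 11.4% and 5.71% in the same order, at most a little above the share of all genes given next. In CD4 WT cells 10 members were higher at 18 h than at 0 h, against 12.2% of all genes, and 5 were lower, against 14%. In CD8 WT cells 6 were higher, against 8.21% of all genes, and 1 was lower, against 7%. In CD4 KO cells 13 were higher (11.1% of all genes) and 4 lower (13.2%), and in CD8 KO cells 9 were higher (3.67%) and 2 lower (3.86%). The ligands had median changes of 1.49 and 0.59 in CD4 and CD8 WT cells and 2.28 and 0.97 in KO cells, while the all-gene medians lay between -0.07 and 0.03. The activation markers moved as well, 9 of 9 in CD4 WT, 8 in CD8 WT, 6 in CD4 KO and 7 in CD8 KO cells being called higher.

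Among ligands, Tnf rose in all 4 groups. Its product is the founding cytokine of the family. It read 6.67 and 6.72 in CD4 WT and 6.69 and 6.65 in CD4 KO cells at 0 h, and 9.17 and 8.78 in CD4 WT and 9.44 and 9.75 in CD4 KO cells at 18 h. In CD8 cells it read 6.08 and 5.99 in WT and 6.40 and 6.28 in KO cells at 0 h, and 7.65 and 7.97 in WT and 7.67 and 8.13 in KO cells at 18 h. No 18 h array overlapped a 0 h array, and the rises were 2.28 ± 0.20 and 2.93 ± 0.20 in CD4 WT and KO and 1.77 ± 0.20 and 1.56 ± 0.20 in CD8 WT and KO cells (largest adjusted p = 0.000453, in CD8 KO). Its neighbour Lta rose by 2.18 ± 0.19 in CD4 WT, 2.37 ± 0.19 in CD4 KO, 2.59 ± 0.19 in CD8 WT and 1.48 ± 0.19 in CD8 KO cells. The remaining gene of that run, Ltb, went the other way. It encodes the membrane partner of lymphotoxin α and lay between 12.45 and 12.96 in all 8 arrays at 0 h. It fell by 1.36 ± 0.40 in CD4 WT cells (adjusted p = 0.0221, and 0.249 without replicate 1 of CD4 WT at both times), with 10.89 and 11.51 at 18 h, and in CD4 KO cells it was at 11.42 and 11.89 (-1.16 ± 0.40, adjusted p = 0.0507, and 0.00654 with the replicate block). In CD8 cells at 18 h its replicates parted in both genotypes, at 12.38 and 11.27 in WT and 12.57 and 11.29 in KO cells.

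In the other run on chromosome 17, Tnfsf9 and Tnfsf14 rose in both CD4 groups and Cd70 in CD4 KO cells. Tnfsf9, the ligand of 4-1BB, read 4.89 and 4.48 in CD4 WT and 4.61 and 4.37 in CD4 KO cells at 0 h, and 6.46 and 5.66 in WT and 6.55 and 6.80 in KO cells at 18 h. It rose by 1.37 ± 0.27 (adjusted p = 0.00177) and 2.19 ± 0.27 (adjusted p = 6.28e-05). In CD8 cells it stayed between 4.38 and 5.27 at both times. Tnfsf14, which encodes LIGHT, a ligand of HVEM and of the lymphotoxin β receptor, read 3.86 and 3.62 in CD4 WT and 3.69 and 3.70 in CD4 KO cells at 0 h, and 5.04 and 6.51 in WT and 5.44 and 7.57 in KO cells at 18 h. Replicate 2 was far above replicate 1 in both stimulated CD4 groups, and the rises were 2.03 ± 0.71 (adjusted p = 0.0485) and 2.81 ± 0.71 (adjusted p = 0.0101). The WT call was lost in 7 of the 16 fits with 1 array left out, and a second probe set changed by 0.32 in CD4 WT and rose by 1.81 in CD4 KO cells. In CD8 cells Tnfsf14 read 4.58 and 4.08 in WT and 4.73 and 3.51 in KO cells at 0 h, and 5.69 and 4.33 in WT and 5.99 and 4.66 in KO cells at 18 h, where replicate 1 was the higher one and the change was not called. Cd70 rose in KO cells of both lineages, by 3.03 ± 0.24 in CD4 (adjusted p = 2.38e-06) and 0.95 ± 0.24 in CD8 cells (adjusted p = 0.0306). The CD8 value was 0.34 (adjusted p = 0.502) without the 3 arrays of largest 3′ to 5′ difference, lay between 0.50 and 1.40 with 1 array left out, and was called in 4 of 9 other alternatives. In WT cells its differences were 0.60 ± 0.24 in CD4 (adjusted p = 0.0842) and 0.00 ± 0.24 in CD8 cells.

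Tnfsf11 rose in all 4 groups and most of all members in 3 of them, by 3.41 ± 0.41 in CD4 WT, 5.01 ± 0.41 in CD4 KO, 2.92 ± 0.41 in CD8 WT and 3.74 ± 0.41 in CD8 KO cells. In folds, the rise was 32.1-fold in CD4 KO and 13.4-fold in CD8 KO cells. Its dimmer probe set was called in CD4 WT and CD4 KO cells (3.26 and 4.81) and not in CD8 WT and CD8 KO cells (1.58 and 0.91). Tnfsf4 rose by 1.602 ± 0.50 in CD4 WT (adjusted p = 0.0286), by 3.04 ± 0.50 in CD4 KO (adjusted p = 0.000563) and by 2.25 ± 0.50 in CD8 KO cells (adjusted p = 0.0152), with 0.66 ± 0.50 in CD8 WT cells. The CD4 WT and CD8 KO calls for Tnfsf4 were lost without the 3 arrays of largest 3′ to 5′ difference (adjusted p = 0.1698 and 0.0767), and the CD4 WT rise was 0.43 (adjusted p = 0.719) without replicate 1 of CD4 WT at both times. Tnfsf8, which encodes the CD30 ligand, had differences of 2.42 ± 1.11 in CD4 WT (adjusted p = 0.133) and 2.20 ± 1.11 in CD4 KO cells (adjusted p = 0.194), which were called with the replicate block (adjusted p = 0.0236 and 0.0400) and without the 3 arrays of largest 3′ to 5′ difference (1.23 ± 0.39 and 2.20 ± 0.32). Its CD4 WT arrays read 4.0 and 6.37 at 0 h and 7.36 and 7.85 at 18 h, and the lowest of these is an array of large 3′ to 5′ difference.

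Tnfsf10 was lower after stimulation in KO cells. It read 4.67 and 4.54 in CD4 WT and 4.77 and 4.45 in CD4 KO cells at 0 h, and 4.01 and 3.92 in WT and 3.55 and 3.67 in KO cells at 18 h. CD8 cells read 4.24 and 4.59 in WT and 5.30 and 5.52 in KO cells at 0 h, and 4.88 and 4.96 in WT and 4.07 and 4.94 in KO cells at 18 h. The drop was called in KO cells, by 1.004 ± 0.24 in CD4 (adjusted p = 0.00696) and 0.90 ± 0.24 in CD8 cells (adjusted p = 0.0373), and in CD4 WT cells with the replicate block (-0.64 ± 0.18, adjusted p = 0.0184). The CD8 KO call held in 7 of the 16 fits with 1 array left out, where the value lay between -1.33 and -0.47, and in 3 of 9 other alternatives. Cd40lg, the CD40 ligand known for its induction on CD4 T cells, stayed between 4.19 and 5.09 over all 16 arrays. This came from 1 probe set, below the median gene mean of 5.88 in every array of both lineages. Whether that probe set detects the transcript was not tested, so a lack of induction cannot be read from it. Tnfsf13b, which encodes BAFF, lay between 3.14 and 3.73.

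Among the costimulatory receptors, OX40 and GITR, whose genes Tnfrsf4 and Tnfrsf18 are direct neighbours, rose in all 4 groups. Tnfrsf4 read 8.07 and 7.77 in CD4 WT and 8.25 and 7.99 in CD4 KO cells at 0 h, and 11.40 and 11.55 in WT and 11.75 and 11.73 in KO cells at 18 h. In CD8 cells it read 6.39 and 7.04 in WT and 6.42 and 6.62 in KO cells at 0 h, and 7.68 and 8.44 in WT and 7.94 and 8.46 in KO cells at 18 h. Stimulated CD4 arrays stood above all others, and stimulated CD8 arrays reached about the level of resting CD4 arrays. The rises were 3.55 ± 0.27 in CD4 WT, 3.62 ± 0.27 in CD4 KO, 1.35 ± 0.27 in CD8 WT (adjusted p = 0.00508) and 1.68 ± 0.27 in CD8 KO cells (adjusted p = 0.00263).

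Tnfrsf18 read 9.09 and 8.77 in CD4 WT and 9.40 and 9.19 in CD4 KO cells at 0 h, and 10.44 and 10.45 in WT and 10.75 and 10.68 in KO cells at 18 h. CD8 cells read 8.32 and 8.67 in WT and 8.39 and 8.98 in KO cells at 0 h, and 9.64 and 9.74 in WT and 10.06 and 10.41 in KO cells at 18 h. Its rises were nearer to each other than those of Tnfrsf4, at 1.51 ± 0.21 and 1.42 ± 0.21 in CD4 WT and KO and 1.20 ± 0.21 and 1.55 ± 0.21 in CD8 WT and KO cells. Regulatory T cells also carry OX40 and GITR. Foxp3, their defining factor, lay between 3.62 and 5.25 in all arrays, highest in CD4 WT 0 h replicate 1, and Ikzf2 between 2.44 and 3.32. Of the 8 listed regulatory T cell markers, stimulation raised 2 in CD4 WT and 2 in CD4 KO cells, 4 in CD8 WT and 3 in CD8 KO cells, in each case including Il2ra and Ctla4, which activated T cells also express. Stimulation lowered 1 of them in CD8 WT, 1 in CD8 KO and 0 in CD4 WT and CD4 KO cells. The list's mean per array lay between 4.58 and 5.24 at 0 h and 5.55 and 5.67 at 18 h in CD4 WT, and between 4.89 and 4.93 and then 5.97 and 6.0 in CD8 WT cells, and the part of regulatory T cells was not tested.

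Tnfrsf9 rose by 2.05 ± 0.22 in CD4 WT, 3.05 ± 0.22 in CD4 KO, 2.77 ± 0.22 in CD8 WT and 2.40 ± 0.22 in CD8 KO cells. A second probe set gave 3.97, 4.08, 4.46 and 4.29 in the same order, and another, at a mean of 3.15, was not called. Cd27 went the other way. It read 10.10 and 9.99 in CD4 WT and 9.59 and 9.69 in CD4 KO cells at 0 h, and 8.58 and 8.57 in WT and 9.34 and 8.98 in KO cells at 18 h. CD8 cells gave 10.04 and 9.95 in WT and 9.86 and 9.91 in KO cells at 0 h, and 9.12 and 9.27 in WT and 9.16 and 8.72 in KO cells at 18 h. All 18 h arrays lay below all 0 h arrays, nearest in CD4 KO cells. Its fall was 1.47 ± 0.17 in CD4 WT (adjusted p = 4.18e-05), with -0.48 ± 0.17 in CD4 KO cells (adjusted p = 0.0591), and it fell by 0.81 ± 0.17 in CD8 WT (adjusted p = 0.00635) and 0.94 ± 0.17 in CD8 KO cells (adjusted p = 0.00479). In stimulated CD4 KO cells Cd27 lay above WT by 0.59 ± 0.17, which was not called (adjusted p = 0.0610), beside the 2.44 of its ligand Cd70.

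Tnfrsf25 read 8.50 and 8.29 in CD4 WT and 8.11 and 8.64 in CD4 KO cells at 0 h, and 6.82 and 7.21 in WT and 7.03 and 7.17 in KO cells at 18 h. In CD8 cells it read 6.65 and 6.68 in WT and 5.34 and 5.68 in KO cells at 0 h, and 6.99 and 5.83 in WT and 6.76 and 7.12 in KO cells at 18 h. It fell by 1.38 ± 0.31 in CD4 WT (adjusted p = 0.00475) and by 1.27 ± 0.31 in CD4 KO cells (adjusted p = 0.00862), rose by 1.43 ± 0.31 in CD8 KO cells (adjusted p = 0.0142) and had a change of -0.25 ± 0.31 in CD8 WT cells. The CD8 KO rise was lost without the 3 arrays of largest 3′ to 5′ difference, which include a KO array of each time. Of the other costimulatory receptors, Tnfrsf8 (CD30), Tnfrsf14 (HVEM), Tnfrsf1b (the second TNF receptor) and Cd40 had no call in any of the 4 stimulations.

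The 4 receptors grouped by their death domain moved in both directions. Tnfrsf1a, the main TNF receptor of most cells, fell by 1.15 ± 0.16 in CD4 WT (adjusted p = 0.000179) and by 0.87 ± 0.16 in CD4 KO cells (adjusted p = 0.00144); its changes of -0.51 and -0.58 in CD8 WT and KO cells had adjusted p of 0.0489 and 0.0496 and were under 1.5-fold. Tnfrsf21, which encodes death receptor 6, rose by 1.32 ± 0.22 in CD4 WT and 0.74 ± 0.22 in CD4 KO cells, and its second probe set rose in all 4 groups, by 2.96, 2.93, 2.11 and 1.595 in CD4 WT, CD4 KO, CD8 WT and CD8 KO cells. Tnfrsf10b, the mouse TRAIL receptor, rose in CD4 KO cells (0.91 ± 0.31, adjusted p = 0.0438). That call was kept in 6 of the 16 fits with 1 array left out, and lost after centring (adjusted p = 0.0525) and quantile normalization (adjusted p = 0.0583). A second Tnfrsf10b probe set was called there (1.02 ± 0.19, adjusted p over all probe sets = 0.00239). Fas was not called in any of the 4 stimulations without the replicate block, and with it rose in CD4 KO (0.64, adjusted p = 0.0443) and CD8 KO cells (0.92, adjusted p = 0.0172).

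In the remaining receptors, calls on stimulation were few. Tnfrsf13b fell by 0.73 ± 0.24 in CD4 WT (adjusted p = 0.0354) and by 1.38 ± 0.24 in CD4 KO cells (adjusted p = 0.000812), and Tnfrsf12a rose in CD4 KO cells (0.90 ± 0.25, adjusted p = 0.0174). The Tnfrsf12a arrays there read 5.53 and 5.48 at 0 h and 5.97 and 6.85 at 18 h. Its second probe set was not called (0.79 ± 0.34, adjusted p over all probe sets = 0.138). Ltbr, Tnfrsf11a, which encodes the receptor RANK, Tnfrsf11b, which encodes osteoprotegerin, a soluble decoy for RANKL, Tnfrsf17 and Tnfrsf19 were called in no stimulation or KO comparison, and neither were the decoys Tnfrsf22 and Tnfrsf23. Of all members, 17 stayed below the median gene mean of 5.88 in every group.

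Further stimulation calls changed without the arrays in doubt. Without the 3 arrays of largest 3′ to 5′ difference, calls were lost in CD4 WT cells for Tnfsf14 (2.15, adjusted p = 0.0774) and Tnfrsf13b (-0.71, adjusted p = 0.123). In CD8 KO cells they were lost for Cd27 (-0.70, adjusted p = 0.133) and Tnfrsf4 (1.51, adjusted p = 0.0610). Gained were Cd70 (0.66, adjusted p = 0.0236) and Tnfrsf19 (0.64, adjusted p = 0.0257) in CD4 WT cells. In CD4 KO cells the gains were Fas (0.64, adjusted p = 0.0340), Ltb (-1.16, adjusted p = 0.0212) and Tnfrsf13c (0.66, adjusted p = 0.0495), and in CD8 WT cells Tnfsf8 (1.05, adjusted p = 0.0379). Without replicate 1 of CD4 WT at both times, CD4 WT calls were lost for Tnfrsf25 (-1.07, adjusted p = 0.168), Tnfrsf13b (-0.82, adjusted p = 0.181) and Tnfsf14 (2.89, adjusted p = 0.0824). Calls with the same value but a larger error were lost there for Tnfrsf10b in CD4 KO (adjusted p = 0.0686) and for Cd70 and Tnfsf10 in CD8 KO cells (adjusted p = 0.0607 and 0.0697).

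**Figure D3:**
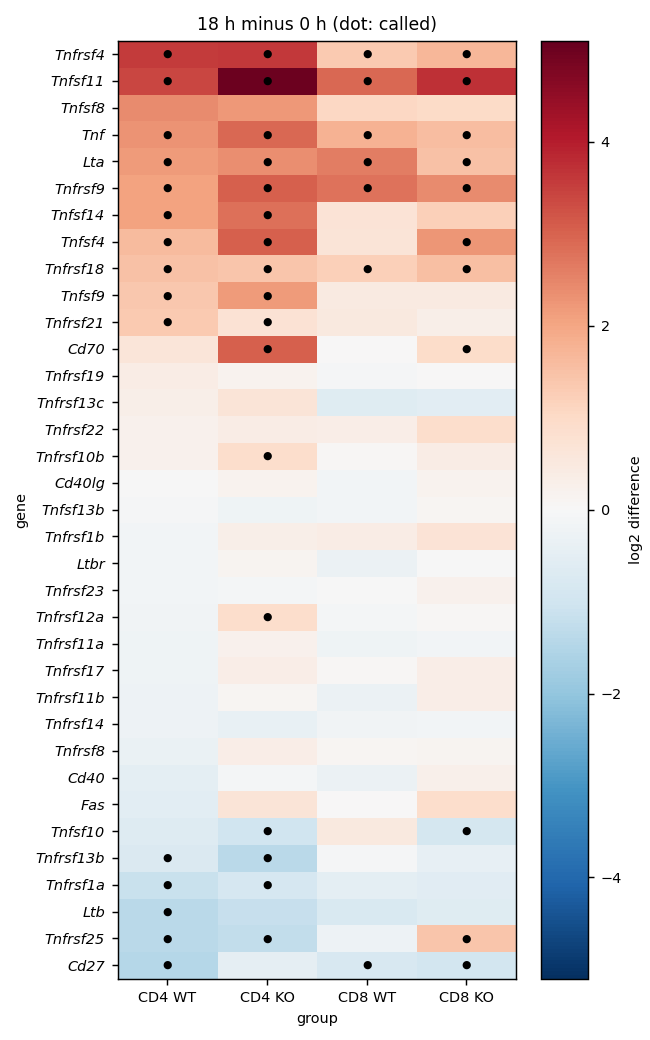
Log2 difference of 18 h and 0 h (colour scale) for the 35 members (rows, ordered by the change in CD4 WT cells) in the 4 groups of lineage and genotype (columns); dots mark called genes. The upper rows from Tnfrsf4 to Tnfsf9 are red in CD4 cells, Cd70 is deep red in CD4 KO cells, and Tnfrsf25 is blue in CD4 and red in CD8 KO cells.

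The response to stimulation was compared directly between genotypes. In CD4 cells 1 of 35 members was called, against 1.41% of all genes. This was Cd70, whose rise was greater in KO than in WT cells by 2.43 ± 0.34 (adjusted p = 0.00554), with an adjusted p of 0.109 once replicate 1 of CD4 WT at both times was left out (2.37 ± 0.45). Of the members, 8 had an unadjusted p under 0.05, beside 11.3% of all genes. With the replicate block Tnfrsf9 was also called (adjusted p = 0.0328), although its second probe set gave a response difference of 0.11 ± 0.42, having been higher in KO cells at 0 h already (1.25 ± 0.30, not called). In CD8 cells 0 members were called, against 0.266% of all genes, and 8 had an unadjusted p under 0.05, beside 9.10% of all genes. These were led by Tnfsf10 (-1.41 ± 0.34, adjusted p = 0.146, called with the replicate block at 0.0453) and Lta (-1.11 ± 0.27, adjusted p = 0.165). The members' median response difference was 0.34 in CD4 and 0.25 in CD8 cells, beside 0.07 and 0.05 over all genes.

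The lineages differed most in Tnfrsf4, Tnfsf11 and Tnfrsf25. In WT cells at 0 h, 0 members were higher in CD8 than in CD4 cells (0.645% of all genes were) and 2 were lower (0.637%), Tnfsf11 by 2.17 ± 0.41 (adjusted p = 0.0204) and Tnfrsf25 by 1.73 ± 0.31 (adjusted p = 0.0141). Tnfrsf4 had a difference of -1.21 ± 0.27 (adjusted p = 0.0601), which passed with the replicate block (adjusted p = 0.00274). In WT cells at 18 h, 4 members were lower in CD8 cells (0.96% of all genes), namely Tnfrsf4 by 3.41 ± 0.27, or 10.6-fold, Tnfsf11 by 2.65 ± 0.41, Tnf by 1.17 ± 0.20 and Tnfsf9 by 1.11 ± 0.27, and Tnfsf10 was higher by 0.96 ± 0.24 (1 member, against 2.32% of all genes). The Tnfsf9 and Tnfsf10 calls did not hold when arrays were centred on their medians (adjusted p = 0.0626 and 0.111), and held in 7 and 2 of the 16 fits with 1 array left out. At 0 h the calls of Tnfsf11 and Tnfrsf25 were lost without any 1 of the 4 arrays compared (-2.47 to -1.86 and -1.84 to -1.63). A second Tnfsf11 probe set gave lineage differences of -0.48 at 0 h and -2.16 at 18 h, neither of them called. The CD8 arrays of Tnfrsf4 at 18 h, at 8.46 or below, did not come near the CD4 arrays at 11.40 or above.

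In KO cells at 0 h, Tnfrsf25 (lower in CD8 cells by 2.86 ± 0.31), Tnfsf11 (by 1.96 ± 0.41) and Tnfrsf4 (by 1.61 ± 0.27) made 3 lower members, against 0.718% of all genes. The Tnfsf11 call was lost with the mean of a gene's probe sets (-1.43, adjusted p = 0.116). The 1 higher member, against 1.59% of all genes, was Tnfrsf13c, which encodes the BAFF receptor (1.67 ± 0.33). Its values were 5.56 and 5.60 in CD8 KO and 4.19 and 3.63 in CD4 KO cells. The mean of the 11 B cell markers per array lay between 4.70 and 4.84 in CD8 KO and between 4.64 and 4.71 in CD4 KO cells at 0 h, and their part was not tested. In KO cells at 18 h, 7 members were lower in CD8 cells (4.54% of all genes) and 1 was higher (9.12%). Lower were Tnfrsf4 by 3.54 ± 0.27, Tnfsf11 by 3.22 ± 0.41, Cd70 by 1.90 ± 0.24, Tnf by 1.70 ± 0.20, Tnfsf9 by 1.57 ± 0.27, Lta by 1.43 ± 0.19 and Tnfrsf9 by 0.76 ± 0.22, and Tnfsf10 was higher by 0.90 ± 0.24. With the mean of a gene's probe sets, the Tnfrsf9 call was lost (-0.31, adjusted p = 0.281) and Tnfrsf12a was called lower (-0.98, adjusted p = 0.0391). Quantile normalization also lost Tnfrsf9 (adjusted p = 0.0542). Array weights lost Tnfrsf9 and Tnfsf10 (adjusted p = 0.165 and 0.0585). The median difference of the members was -0.20, beside 0.04 over all genes.

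The replicate block added Tnfrsf18 as lower in CD8 cells in WT at 18 h (-0.75 ± 0.15, adjusted p = 0.0129) and in KO at 0 h (-0.61 ± 0.15, adjusted p = 0.0477). It also added Tnfsf10 as higher in KO at 0 h (0.80 ± 0.18, adjusted p = 0.0379). In KO cells at 18 h it added Tnfrsf12a (-0.76 ± 0.20, adjusted p = 0.0182) and Tnfsf8 (-2.76 ± 0.73, adjusted p = 0.0210) as lower. Without the 3 arrays of largest 3′ to 5′ difference, WT calls were lost at 0 h for Tnfrsf25 (-1.63, adjusted p = 0.116) and Tnfsf11 (-1.86, adjusted p = 0.103). KO calls were lost at 18 h for Tnfrsf9 (-0.58, adjusted p = 0.245) and Tnfsf10 (0.47, adjusted p = 0.201). Cd27 was then called higher in CD8 WT cells at 18 h (0.62, adjusted p = 0.0488), and Tnfrsf18 lower in WT at 18 h (-0.75, adjusted p = 0.0224) and in KO at 0 h (-0.91, adjusted p = 0.0469). Without replicate 1 of CD4 WT at both times, WT calls were lost at 0 h for Tnfrsf25 (adjusted p = 0.176) and Tnfsf11 (adjusted p = 0.303). At 18 h they were lost for Tnf (-0.97, adjusted p = 0.0895), Tnfsf9 (-0.71, adjusted p = 0.351) and Tnfsf10 (1.01, adjusted p = 0.212).

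The WT response to stimulation differed between lineages for 1 member, against 0.371% of all genes. Tnfrsf4 rose less in CD8 than in CD4 cells, with a difference of -2.20 ± 0.39 (adjusted p = 0.0350). This call was kept in 3 of the 16 fits with 1 array left out, where the value lay between -2.58 and -1.82. It was lost without the 3 arrays of largest 3′ to 5′ difference (-2.35) or without replicate 1 of CD4 WT at both times (-2.43). Of the members, 8 had an unadjusted p under 0.05 in the main fit, beside 9.16% of all genes.

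**Figure D4:**
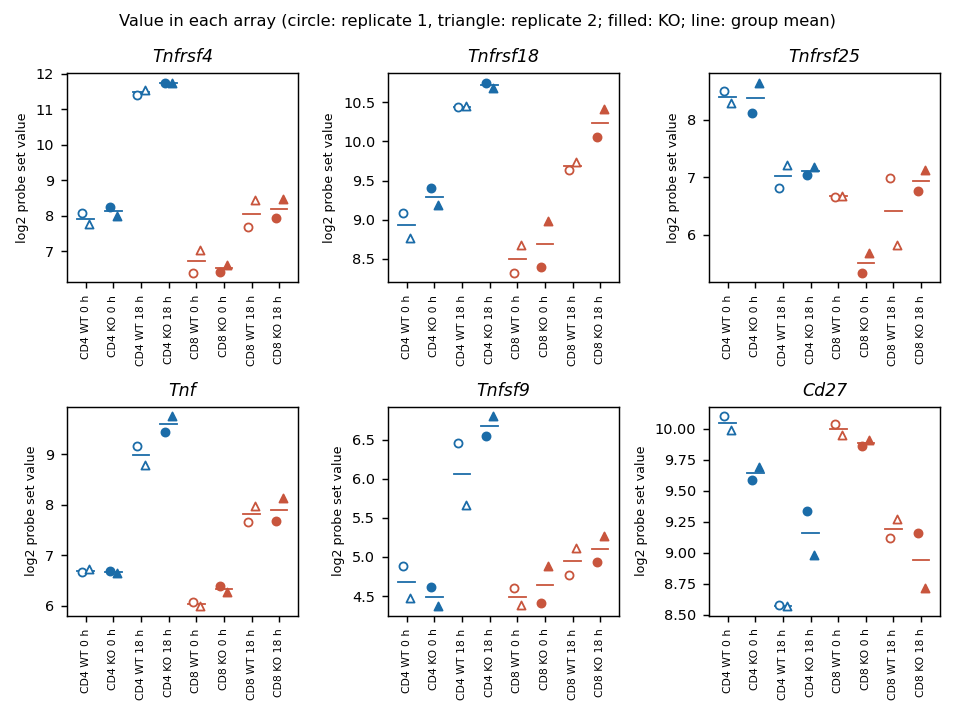
Log2 probe set value (vertical axis) of Tnfrsf4, Tnfrsf18, Tnfrsf25, Tnf, Tnfsf9 and Cd27 in each of the 16 arrays by group (horizontal axis); blue is CD4, red CD8, filled symbols KO, circles replicate 1, triangles replicate 2, and lines the group means. Tnfrsf4 lies at 11.40 to 11.75 in stimulated CD4 arrays and at 7.68 to 8.46 in stimulated CD8 arrays.

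Signal proteins downstream of the receptors were read from a list of adaptors, kinases and caspase regulators, of which 30 of 39 were measured. In CD4 cells at 18 h, 4 were higher in KO cells (all genes 2.72%). They were Traf1, an adaptor of several costimulatory receptors (1.88 ± 0.20, adjusted p = 0.000125), Cflar, which encodes the caspase-8 inhibitor c-FLIP (1.56 ± 0.33, adjusted p = 0.0128), Birc3, which encodes the ubiquitin ligase cIAP2 (0.74 ± 0.14), and Map3k14, which encodes the NF-κB inducing kinase (0.70 ± 0.18). Another 4 were lower (all genes 4.14%), Ripk3, the kinase of necroptosis (-2.68 ± 0.17, adjusted p = 1.1e-05), Traip (-1.43 ± 0.21), Traf3ip2 (-0.96 ± 0.21) and Ikbkg (-0.86 ± 0.23). In CD8 cells at 18 h Traf1 (0.95 ± 0.20), Map3k14 (0.84 ± 0.18) and Birc3 (0.83 ± 0.14) were higher (3 genes, beside 1.59% of all) and Ripk3 (-1.48 ± 0.17) lower (1 gene, beside 1.16%). At 0 h there was 1 call in each lineage, Ripk3 in CD4 (-1.09 ± 0.17) and Traip in CD8 cells (1.41 ± 0.21), beside 1.27% and 1.63% of all genes. The list's median KO difference at 18 h was 0.09 in CD4 and 0.30 in CD8 cells.

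On stimulation, 1 of the 30 signal proteins was called higher and 13 lower in CD4 WT cells (all genes 12.2% and 14%), 1 and 7 in CD8 WT (8.21% and 7%), 3 and 12 in CD4 KO (11.1% and 13.2%) and 0 and 3 in CD8 KO cells (3.67% and 3.86%). Casp8, which encodes caspase-8, fell by 1.80 in CD4 WT and 2.15 in CD4 KO cells, and Traf5, an adaptor of OX40 and CD27, by 1.49 and 1.45. Of 14 measured NF-κB factors and target genes, 2 were higher in KO than in WT CD4 cells at 18 h, Rela (0.88 ± 0.17) and Nfkbia, which encodes the inhibitor IκBα (0.81 ± 0.13), beside 2.72% of all genes, and 3 in CD8 cells, beside 1.59%, Relb (0.92 ± 0.19), Rela (0.81 ± 0.17) and Nfkbia (0.73 ± 0.13); none was lower, and none was called at 0 h. The list's median KO difference at 18 h was 0.57 in CD4 and 0.54 in CD8 cells. Stimulation raised 7 of the 14 in CD4 WT, 5 in CD8 WT, 9 in CD4 KO and 6 in CD8 KO cells, among them Irf4 (4.81 and 4.82 in CD4 and CD8 WT cells) and the chemokine gene Ccl3 (3.82 and 7.06), and lowered 0, 1, 2 and 0.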

How the data were processed

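RNA from 16 samples of sorted mouse T cells was amplified in a pair of rounds, labelled with biotin and hybridized to Affymetrix expression arrays. The deposited values were log2 probe set summaries that the authors had made with the R package affy, whose version and summary method are not given in the sources used here. Values of this kind do not show a shift in the total RNA of a cell. The precision is limited by the number of arrays, which have no depth to state.

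The platform table named 1 gene for 20393 of the 22690 probe sets, several for 691 and none for 1606. A gene was read from the brightest probe set that named it alone, and 12 members had more than 1. Another 2 probe sets, shared by Tnfsf12 and its neighbours, were left out. All 35 members matched the RefSeq table of assembly GRCm38.p6, which gave names and neighbours; it did not hold promoter windows for 8 of them in the table used.

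The model was fitted over all 16 arrays in R 4.3.3 (limma 3.58.1), with 8 group means (8 residual degrees of freedom and 4.32 from the prior). A gene was called at a Benjamini-Hochberg adjusted p under 0.05 over 12394 genes and a fold over 1.5. The steps were run on simulated data with independent noise in each array, so the replicate correlations given next were not part of that check. Across genes, the differences of replicate 2 and replicate 1 correlated at 0.18 to 0.56 for the 12 pairs of groups of the same lineage and at -0.60 to -0.12 for the 16 pairs of different lineage, so the numbers were taken to pair samples within a lineage only. Whether replicate 1 of one lineage shares a source with replicate 2 of the other was not tested. Contrasts between lineages treated their arrays as independent.

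Alternatives were the replicate block, limma's treat, each lineage fitted alone, centring or quantile normalization of the arrays, brighter genes only, the mean of a gene's probe sets, array weights, 1 array left out in turn, no arrays of high 3′ to 5′ difference, and, added after the data were seen, no CD4 arrays of high Cd8a. Per-array values are given for members called in a KO comparison, in a difference of responses or between WT lineages, or changed by over 1.5 (log2) in stimulated WT cells; Tnfsf8, Ltb, Tnfrsf13c and Cd27 were added after their values were seen. Of the signal protein and marker lists up to 4 called genes with the largest change were named for each kind of comparison, and, after their values were seen, all signal proteins called in a KO comparison. The members, lists and tests were chosen with earlier results of these data known.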

Additional observations from a re-analysis of the deposited data

Results flagged for a closer look

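A pair of results drew attention because a response differed between groups by a test of the difference itself. The rise of Cd70 with stimulation was greater in KO than in WT CD4 cells by 2.43 ± 0.34 (adjusted p = 0.00554), and it was kept in all 16 fits with 1 array left out. That call was lost without replicate 1 of CD4 WT at both times (2.37). The rise of Tnfrsf4 in WT cells was smaller in the CD8 than in the CD4 lineage, with a difference of -2.20 ± 0.39 (adjusted p = 0.0350). The Tnfrsf4 call was kept in 3 of the 16 fits with 1 array left out, and lost after centring (-2.14, adjusted p = 0.0608).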

How the results depend on the processing

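The 79 called member results were recomputed under the alternatives, where 1748 values kept direction and call, 266 kept the direction only, and 0 turned. Treat, the replicate block, each lineage alone, brighter genes only and array weights left the differences themselves unchanged. So did leaving out an array outside the comparison, and in all these runs the direction could not turn. Calls kept when any 1 array was left out numbered 1 of 8 for KO against WT (Cd70 in CD4 cells at 18 h), 33 of 50 for stimulation, 8 of 19 between lineages, 1 of 1 for the KO response and 0 of 1 for the WT response. Counts of called members are given next where they moved by over 1.5 times; the cause was not tested, except that treat is stricter by construction and fewer arrays or genes were used where so named.

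For KO against WT, CD8 cells at 0 h (0 called) had 2 with the replicate block and 2 with array weights, and 0 to 1 with 1 array left out. CD4 cells at 18 h (6 called) had 1 with treat, 2 without the CD4 arrays of high Cd8a, and 1 to 8 with 1 array left out. CD8 cells at 18 h (2 called) had 0 with treat, with each lineage alone, after centring, with array weights and without the 3 arrays of high 3′ to 5′ difference, 1 with the mean of probe sets and without the arrays of high Cd8a, 6 with the replicate block, and 0 to 10 with 1 array left out.

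For stimulation, treat gave 9 in CD4 WT (15 called), 4 in CD8 WT (7), 11 in CD4 KO (17) and 5 in CD8 KO cells (11). Brighter genes alone gave 11 in CD4 KO, and CD8 KO cells had 7 with array weights and 6 without the 3 arrays. With 1 array left out the ranges were 11 to 18, 5 to 7, 12 to 18 and 7 to 16. The KO response in CD4 cells (1) had 2 with the replicate block or array weights, 0 among brighter genes (Cd70 is not among them) and 0 without the arrays of high Cd8a, and 1 to 2 with 1 array left out. That in CD8 cells (0) had 1 with the replicate block and 0 to 1 with 1 array left out.

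Between WT lineages at 0 h (2) there were 0 with treat, without the 3 arrays or without the arrays of high Cd8a, 1 with the mean of probe sets, and 0 to 3 with 1 array left out. At 18 h (5) there were 2 with treat or without the arrays of high Cd8a, 3 after centring, quantile normalization or among brighter genes, and 1 to 6 with 1 array left out. Between KO lineages there was 1 with treat at 0 h (4 called, 1 to 5 with 1 array left out) and 5 among brighter genes at 18 h (8 called, 6 to 12). The KO effect at 18 h differed between lineages for 0 members, for 1 without the 3 arrays, and for 0 to 4 with 1 array left out. The WT response (1) had 0 with treat, after centring, without the 3 arrays or without the arrays of high Cd8a, and 0 to 2 with 1 array left out. Contrasts between lineages could not be fitted with each lineage alone.

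The replicate block lost no member call. Centring moved the all-gene median by at most 0.115, in the CD4 KO response. It moved the share of higher among all called genes from 41.8% to 31.5% for KO against WT in CD4 cells at 0 h, from 37.1% to 50% and from 15.2% to 37.5% for the KO response in CD4 and CD8 cells, and from 60.9% to 81.3% for the WT response. With 2 arrays a group, small differences could not be called.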

Other observations

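Tnfsf8, which encodes the ligand of CD30, had the widest spread between replicates of all members. Its lowest values were 4.0 in CD4 WT 0 h replicate 1, 4.14 in CD8 KO 0 h replicate 2 and 4.48 in CD8 KO 18 h replicate 2, and the other 13 arrays lay between 6.37 and 9.45. The 3 low arrays were the 3 of largest 3′ to 5′ difference (1.58, 1.11 and 3.76), and the link was not tested. Without them Tnfsf8 was called higher in KO CD4 cells at 18 h (1.61 ± 0.32).

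Tnfrsf22 read 6.25 in CD8 KO 18 h replicate 2 and at most 5.02 in the other 15 arrays. Ltb at 18 h was lower in replicate 2 than in replicate 1 of both CD8 groups and higher in replicate 2 of both CD4 groups, and Tnfsf14 was split the same way.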
